A study of Mus musculus with 12 samples.

Results

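The T cell derived chemokines Ccl3, Ccl4, Ccl5, Xcl1, Cxcl10 and Cxcl9 were taken from the count table by symbol, as 6 of its 55487 gene identifiers. Of these 6 genes, 5 were among the 15897 genes that passed a filter on low counts, and Cxcl9 was not. Bulk RNA sequencing had been done on CD8+ T cells of splenocytes from C57BL/6 mice, with 3 libraries for each of 4 treatments: IL-12 80%TCM, IL-12, IL-2 80%TCM and IL-2. All 4 groups therefore received a cytokine, and the group with IL-2 and no TCM, whose titles call it a control, was no untreated culture. TCM is not spelled out in the labels, and the series title speaks of a tumor-like condition. The labels give no age, no time of culture, no activation step and no way of purification. Nothing in them tells whether the 3 libraries of a treatment were separate mice or cultures, so p-values here measure only how far these libraries spread, and that spread may be technical.

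Chemokines are small secreted proteins that attract cells carrying the matching receptor. Activated CD8+ T cells release Ccl3, Ccl4 and Ccl5, which draw in monocytes and T cells, and Xcl1, which attracts the cross-presenting dendritic cells that carry Xcr1. Cxcl9 and Cxcl10 are induced by interferons and call in T cells through Cxcr3. They are made mainly by myeloid and stromal cells and to a lesser degree by T cells. IL-2 is a growth factor of T cells, and IL-12 acts through Stat4 and induces interferon gamma.

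In the GENCODE M21 annotation of mouse build GRCm38, Ccl5 (ENSMUSG00000035042) lies on chromosome 11 at 83525778 to 83530518, Ccl3 (ENSMUSG00000000982) at 83647844 to 83649355 and Ccl4 (ENSMUSG00000018930) at 83662584 to 83664683. Ccl3 and Ccl4 are 13.2 kb apart and are transcribed in opposite directions. Cxcl9 (ENSMUSG00000029417) at 92321347 to 92328079 and Cxcl10 (ENSMUSG00000034855) at 92346638 to 92348889 are neighbours on chromosome 5, 18.6 kb apart and both on the minus strand. Xcl1 (ENSMUSG00000026573) lies on chromosome 1 at 164931644 to 164935527. A gene on the other strand overlaps Xcl1 (Gm20743, group means of 0.740 to 1.91 CPM) and another overlaps Cxcl10 (Art3, group means of 0.145 to 0.354 CPM). How strand was handled in counting is not given in the labels or notes used here, so reads from these overlaps may be shared.

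Promoters of 4 of the 6 genes were found in the RefSeq table of build GRCm38.p6; those of Ccl4 and Ccl5 are not shown. The 250 bases before the start of Cxcl10 (chr5:92348890-92349139, minus strand), Cxcl9 (chr5:92328080-92328329, minus strand), Ccl3 (chr11:83649379-83649628, minus strand) and Xcl1 (chr1:164935523-164935772, minus strand) are shown as the members of the set with sequence in that table. They are written 5′ to 3′ toward the gene, and capitals mark matches to 5 motifs searched on both strands.
Cxcl10: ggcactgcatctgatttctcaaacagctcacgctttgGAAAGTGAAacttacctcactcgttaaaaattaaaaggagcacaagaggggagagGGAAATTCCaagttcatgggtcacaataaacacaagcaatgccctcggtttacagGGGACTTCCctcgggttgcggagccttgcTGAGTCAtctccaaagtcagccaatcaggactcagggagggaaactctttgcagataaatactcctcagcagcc
Cxcl9: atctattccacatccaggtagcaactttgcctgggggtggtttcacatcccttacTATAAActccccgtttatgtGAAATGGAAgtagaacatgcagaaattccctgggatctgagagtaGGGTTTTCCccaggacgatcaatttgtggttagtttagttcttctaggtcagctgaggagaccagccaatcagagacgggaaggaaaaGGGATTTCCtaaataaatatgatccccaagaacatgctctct
Ccl3: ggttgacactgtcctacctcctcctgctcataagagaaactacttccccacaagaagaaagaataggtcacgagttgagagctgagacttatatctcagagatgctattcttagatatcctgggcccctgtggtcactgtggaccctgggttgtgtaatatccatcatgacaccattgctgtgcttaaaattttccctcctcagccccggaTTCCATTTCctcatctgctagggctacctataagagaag
Xcl1: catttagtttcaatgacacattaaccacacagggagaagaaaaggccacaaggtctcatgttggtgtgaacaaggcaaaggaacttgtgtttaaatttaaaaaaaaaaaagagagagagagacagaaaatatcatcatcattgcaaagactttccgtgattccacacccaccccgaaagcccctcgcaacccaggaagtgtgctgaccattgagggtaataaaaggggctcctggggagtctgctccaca

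The interferon-stimulated response element core, spelled GAAANNGAA, had 1 match each in Cxcl10 (213 to 205 bases before the start), Cxcl9 (175 to 167 bases before it) and Ccl3 (39 to 31 bases before it, on the opposite strand). It occurs in 7.15% of the 32536 windows of the same length in the table. The NF-kappaB pattern GGNNNTTCC, present in 15.7% of windows, had 2 matches in Cxcl10 (158 to 150 and 103 to 95 bases before the start) and 2 in Cxcl9 (130 to 122 and 42 to 34 bases before it). The AP-1 site TGANTCA, present in 6.73% of windows, had 1 match, in Cxcl10 (74 to 68 bases before the start). TATAAA, present in 12.3% of windows, matched once in Cxcl9, and the gamma-activated sequence TTCNNNGAA, present in 7.04%, matched in none of the 4 windows. Xcl1 held none of the 5 patterns. The Cxcl10 match at 158 to 150 bases fits its pattern on both strands and is counted once. No matches at different positions overlapped each other, and a match is a run of letters, not a measured binding site.

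In units of 1e+06, each library held 19.5 to 49.6 counts on genes, with the 2 deepest libraries in the IL-12 group without TCM. Levels are in CPM, counts per 1e+06 counts, with library sizes adjusted by the trimmed mean of M-values. All 6 CD8 T cell markers (Cd3d, Cd3e, Cd3g, Cd8a, Cd8b1 and Cd2) were detected in every library and summed to 2836 to 3579 CPM. Replicate 3 of both IL-2 groups stood apart from replicates 1 and 2. For example, the glycolytic enzyme Pkm had 1148, 1095 and 3932 CPM in replicates 1 to 3 of IL-2 80%TCM, and 1138, 1193 and 3928 CPM in those of IL-2. Results of the tested chemokines that involve the IL-2 groups are therefore also given without these 2 libraries where the call changes. Values of the other named genes and of the gene lists were not recomputed without them, and may depend on them. In bulk RNA, fewer expressing cells and less RNA per cell cannot be told apart.

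Among the 6 genes, Ccl5 mRNA was the most abundant in every library after scaling to exon length, followed by Xcl1. Per kb of merged exons, Ccl5 averaged 47.6 ± 4.74 CPM in IL-12 80%TCM, 75.6 ± 4.70 in IL-12, 37.0 ± 6.03 in IL-2 80%TCM and 59.4 ± 5.5 in IL-2 (SD, n = 3 each). Xcl1 averaged 20.7 ± 1.03, 33.9 ± 2.41, 10.7 ± 1.42 and 14.7 ± 1.5 CPM per kb in the same order of groups. Ccl4 came next in the IL-12 group without TCM, at 10.9 ± 0.957 CPM per kb, ahead of Ccl3 at 6.92 CPM per kb and Cxcl10 at 4.49 CPM per kb. In the IL-2 80%TCM group, Ccl3 at 2.60 and Ccl4 at 2.18 CPM per kb did not differ beyond their spread. Cxcl9 had the lowest mean in all 4 groups, at 0.0351 to 0.228 CPM per kb.

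Ccl5 made up 61.4 to 66.2% of the length-scaled sum of the 6 mRNAs in IL-12 80%TCM libraries, 53.7 to 59.7% in IL-12, 64.3 to 73.7% in IL-2 80%TCM and 69.1 to 77.0% in IL-2. Xcl1 contributed 24.3 to 29.2%, 23.9 to 27.8%, 16.4 to 25.1% and 15.3 to 20.1% in these groups. Without length scaling, the 6 levels summed to 60.8 to 68.4 CPM in IL-12 80%TCM and 112 to 115 CPM in IL-12, and to 38.9 to 48.6 CPM in IL-2 80%TCM and 68.7 to 77.0 CPM in IL-2. The summed level was thus lower with TCM under each cytokine, without overlap of libraries, and Ccl5 set most of it.

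**Figure D1:**
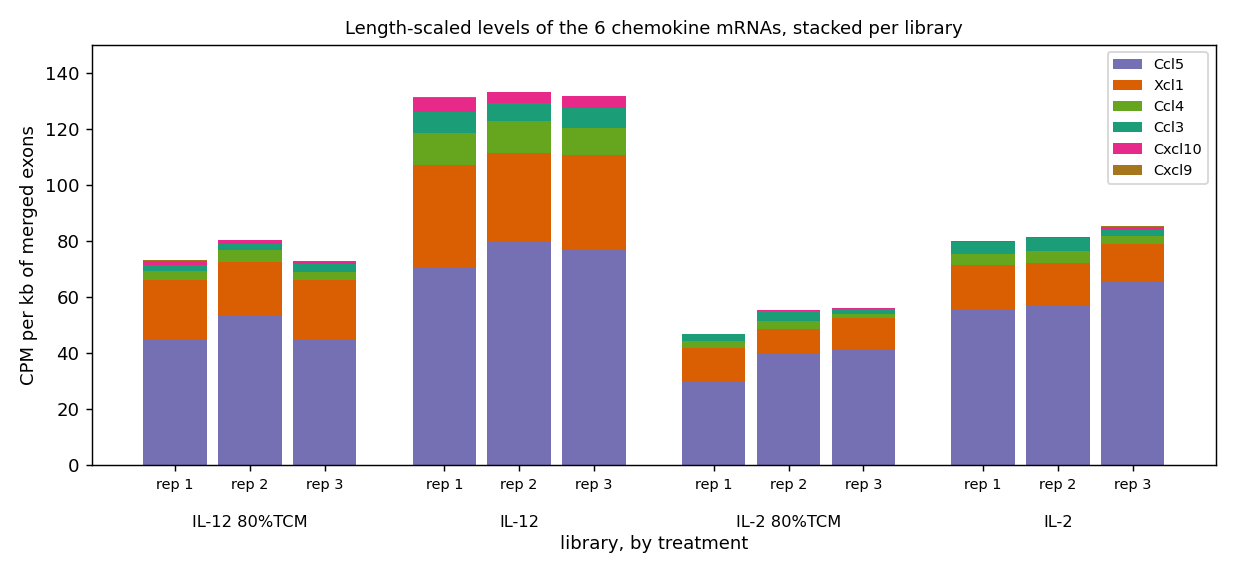
Stacked bars give the level of each of the 6 chemokine mRNAs in CPM per kb of merged exons, with 1 bar per library and the libraries grouped by treatment. Ccl5 was the largest part of every bar, and the IL-12 libraries without TCM had the tallest bars.

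With 80%TCM in the IL-12 cultures, all 5 chemokines that could be tested fell, and in none of them did the 3 IL-12 80%TCM libraries overlap the 3 IL-12 libraries. Cxcl10 fell 3.69-fold, Ccl4 3.31-fold and Ccl3 2.68-fold, while Xcl1 fell 1.62-fold and Ccl5 1.57-fold. Calls are from edgeR's quasi-likelihood test at an adjusted p below 0.05, with Benjamini-Hochberg adjustment over all tested genes, and 14.2% of all tested genes were called lower in this comparison and 14.8% higher. The median log2 fold change was -1.42 over the 5 chemokines and 0.011 over all tested genes.

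Ccl3, a ligand of Ccr1, had 1.86, 1.67 and 2.30 CPM in replicates 1 to 3 of IL-12 80%TCM, against 5.53, 4.98 and 5.39 CPM in IL-12. All 3 IL-12 libraries lay far above all 3 libraries with TCM. The log2 fold change was -1.42 ± 0.27 (SE, adjusted p = 0.00174 in edgeR). Ccl4, a close relative of Ccl3, had 1.92, 2.77 and 1.80 CPM in IL-12 80%TCM, against 7.69, 7.46 and 6.50 CPM in IL-12. Its log2 fold change was -1.73 ± 0.23 (adjusted p = 0.00017), and again the groups were well apart.

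Cxcl10 had 2.98, 2.72 and 2.45 CPM in IL-12 80%TCM, against 11.96, 9.04 and 9.37 CPM in IL-12. Its log2 fold change of -1.88 ± 0.21 (adjusted p = 4.75e-05 in edgeR) was the lowest among the 5. Ccl5, a ligand of Ccr1 and Ccr3 that effector and memory CD8+ T cells keep at high levels, had 43.1, 51.0 and 43.0 CPM in IL-12 80%TCM, against 67.6, 76.4 and 73.9 CPM in IL-12. Its log2 fold change was -0.65 ± 0.11 (adjusted p = 0.00104). Xcl1 had 11.1, 10.2 and 11.1 CPM in IL-12 80%TCM, against 19.1, 16.6 and 17.5 CPM in IL-12. The log2 fold change of Xcl1 was -0.70 ± 0.11 (adjusted p = 0.000598), close to that of Ccl5 and smaller in size than those of the other 3 genes.

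**Figure D2:**
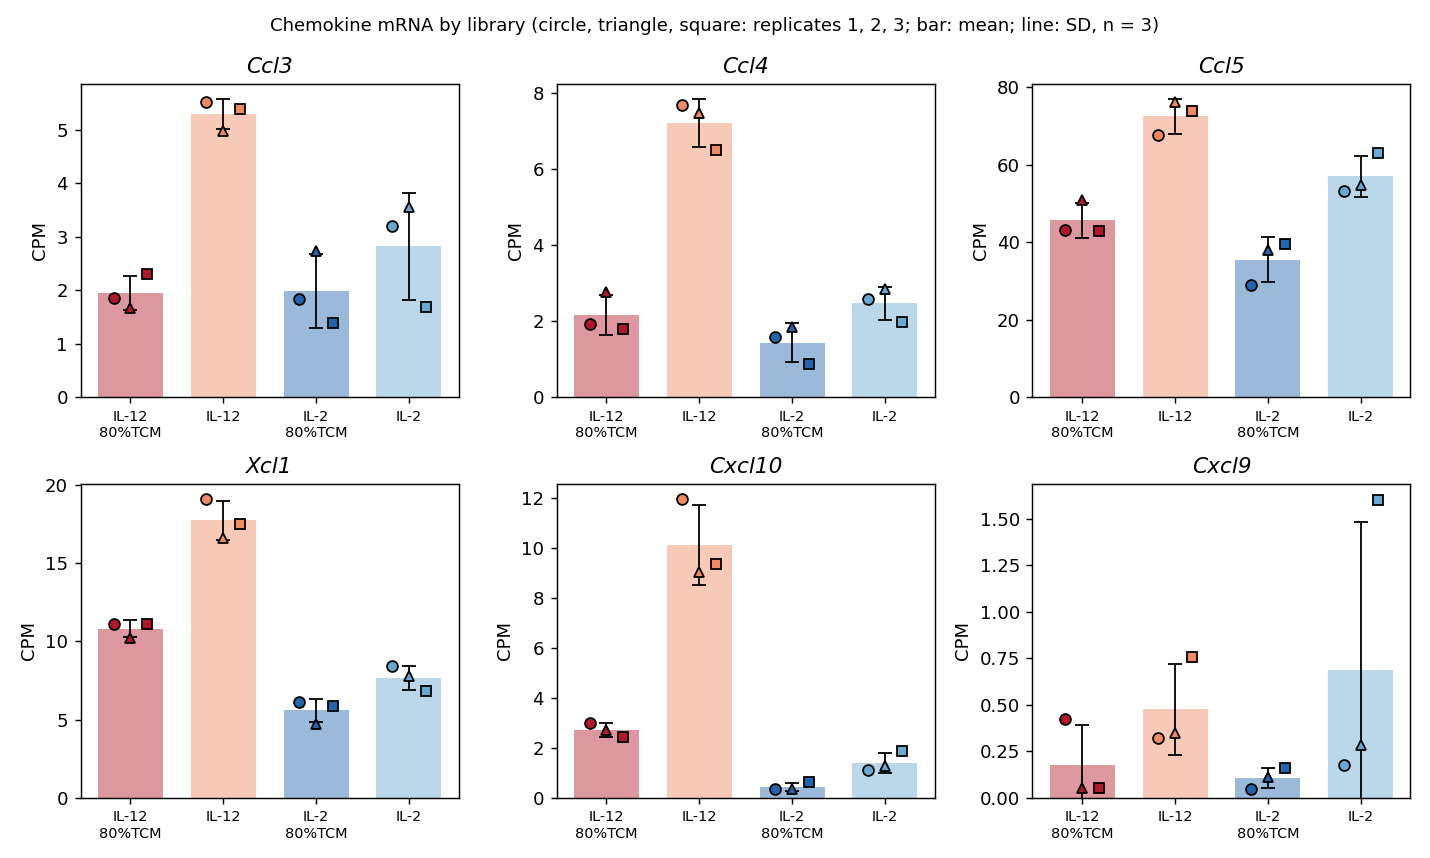
Each panel shows the CPM of 1 chemokine in the 12 libraries, with circle, triangle and square for replicates 1, 2 and 3, bars for the group mean and lines for the SD (n = 3, drawn from 0 where the mean minus the SD is negative). In the 5 genes other than Cxcl9 the IL-12 libraries without TCM lay above all libraries of IL-12 80%TCM.

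In the IL-2 cultures 3 of the 5 tested chemokines fell with 80%TCM, namely Cxcl10, Ccl5 and Xcl1, against 7.82% of all tested genes called lower and 6.73% called higher. Cxcl10 had 0.338, 0.334 and 0.632 CPM in IL-2 80%TCM, against 1.10, 1.26 and 1.86 CPM in IL-2, and these values rest on 7, 9 and 16 counts with TCM and on 25, 31 and 43 counts without. The groups did not overlap, and the log2 fold change was -1.68 ± 0.30 (adjusted p = 0.00305 in edgeR). Ccl5 had 28.9, 38.1 and 39.6 CPM in IL-2 80%TCM, against 53.2, 54.8 and 63.0 CPM in IL-2, a log2 fold change of -0.69 ± 0.11 (adjusted p = 0.00189). Xcl1 had 6.14, 4.75 and 5.88 CPM in IL-2 80%TCM, against 8.40, 7.78 and 6.84 CPM in IL-2. Its groups did not overlap but lay close, with a log2 fold change of -0.47 ± 0.12 (adjusted p = 0.0196). The Xcl1 call was lost with only these 2 groups fitted (adjusted p = 0.121) and without replicate 1 or 2 of IL-2 or replicate 2 of IL-2 80%TCM (adjusted p of 0.0638 to 0.0942). The median log2 fold change was -0.69 over the 5 chemokines and 0.0045 over all tested genes.

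Ccl3 and Ccl4 did not pass the test in the IL-2 cultures. Ccl3 had 1.84, 2.74 and 1.38 CPM in IL-2 80%TCM, against 3.21, 3.56 and 1.69 CPM in IL-2, so that the groups overlapped. Its log2 fold change was -0.50 ± 0.27 (adjusted p = 0.247 in edgeR), with a 95% interval of -1.09 to 0.084. Ccl4 had 1.60, 1.85 and 0.868 CPM in IL-2 80%TCM, against 2.60, 2.84 and 1.99 CPM in IL-2. The groups did not overlap, and its log2 fold change of -0.79 ± 0.25 came to an adjusted p of 0.0510 in edgeR. In each of these 2 genes replicate 3 had the lowest value of both IL-2 groups.

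Replicate 3 of IL-2 80%TCM and replicate 3 of IL-2 deviated together from their group means (correlation 0.68 over all tested genes). Replicates 1 and 2 correlated as highly across numbers (0.45 and 0.41) as within them (0.43 and 0.40), so their pairing is not known. A block of the IL-2 groups by replicate number was chosen from these same data. In that fit all 5 chemokines were called lower with TCM, against 14% of all tested genes. The blocked log2 fold changes were -0.50 for Ccl3 (adjusted p = 0.0409 in edgeR) and -0.80 for Ccl4 (adjusted p = 0.00471). Without replicate 3 of both groups, 4 of 5 were called lower, against 12.4% of all tested genes, with Ccl4 at -0.64 (adjusted p = 0.0331) and Ccl3 at -0.54 (adjusted p = 0.0573). Without replicate 3 of IL-2 alone both were called, Ccl3 at -0.76 (adjusted p = 0.0402) and Ccl4 at -0.92 (adjusted p = 0.0304). Ccl4 was also called without replicate 2 of IL-2 80%TCM (-1.03, adjusted p = 0.0337).

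Without TCM, all 5 tested chemokines were higher with IL-12 than with IL-2, against 22.1% of all tested genes called higher and 23% called lower. Cxcl10 averaged 10.1 ± 1.60 CPM in IL-12 and 1.41 ± 0.403 CPM in IL-2 (SD, n = 3 each), a log2 fold change of 2.82 ± 0.22 (adjusted p = 3.48e-07 in edgeR) or 7.08-fold. Ccl4 averaged 7.22 ± 0.632 CPM in IL-12 and 2.47 ± 0.435 CPM in IL-2, a log2 fold change of 1.53 ± 0.22 (adjusted p = 0.000105). Xcl1 averaged 17.8 ± 1.26 CPM in IL-12 and 7.67 ± 0.786 CPM in IL-2, a log2 fold change of 1.19 ± 0.11 (adjusted p = 2.35e-06). For these 3 genes all IL-12 libraries lay far above all IL-2 libraries.

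Ccl3 averaged 5.30 ± 0.285 CPM in IL-12 and 2.82 ± 0.997 CPM in IL-2, a log2 fold change of 0.89 ± 0.25 (adjusted p = 0.0114 in edgeR). Ccl5, the most abundant of the set, differed least. It averaged 72.6 ± 4.51 CPM in IL-12 and 57.0 ± 5.28 CPM in IL-2, a log2 fold change of 0.33 ± 0.11 (adjusted p = 0.0294). The groups did not overlap for any of the 5 genes, and the median log2 fold change was 1.19 over the 5 chemokines and -0.0084 over all tested genes. The call for Ccl5 was lost under upper-quartile scaling (adjusted p = 0.0906), under a filter at a mean of 5 CPM (adjusted p = 0.0566) and when replicate 1 or replicate 2 of IL-2 or replicate 2 or replicate 3 of IL-12 was left out, at adjusted p of 0.0676 to 0.0795.

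In cultures with 80%TCM, 3 of the 5 were higher with IL-12 than with IL-2, against 19.5% of all tested genes called higher and 19.4% called lower. Cxcl10 averaged 2.72 ± 0.267 CPM in IL-12 80%TCM and 0.435 ± 0.171 CPM in IL-2 80%TCM (SD, n = 3 each), a log2 fold change of 2.62 ± 0.28 (adjusted p = 8.04e-06 in edgeR) or 6.15-fold. Xcl1 averaged 10.8 ± 0.539 CPM in IL-12 80%TCM and 5.59 ± 0.741 CPM in IL-2 80%TCM, a log2 fold change of 0.96 ± 0.12 (adjusted p = 2.77e-05). Ccl5 averaged 45.7 ± 4.55 CPM in IL-12 80%TCM and 35.5 ± 5.79 CPM in IL-2 80%TCM, a log2 fold change of 0.36 ± 0.12 (adjusted p = 0.0246). The Ccl5 call was lost under upper-quartile scaling, with only these 2 groups fitted, and without replicate 1 of IL-2 80%TCM or replicate 2 of IL-12 80%TCM, at adjusted p of 0.0572 to 0.117.

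Ccl3 and Ccl4 did not pass the test between the cytokines in the presence of TCM. Ccl3 averaged 1.95 ± 0.320 CPM in IL-12 80%TCM and 1.99 ± 0.694 CPM in IL-2 80%TCM (SD, n = 3 each), with overlapping groups and a log2 fold change of -0.03 ± 0.29 (adjusted p = 0.941 in edgeR). The 95% interval for Ccl3 ran from -0.66 to 0.59. Ccl4 averaged 2.16 ± 0.532 CPM in IL-12 80%TCM and 1.44 ± 0.511 CPM in IL-2 80%TCM, also with overlapping groups, and its log2 fold change was 0.59 ± 0.26 (adjusted p = 0.0895). With the replicate block in the IL-2 groups Ccl4 was called higher (log2 fold change 0.62, adjusted p = 0.0192), which made 4 of 5, against 25.1% of all tested genes. The median log2 fold change was 0.59 over the 5 chemokines and -0.0088 over all tested genes.

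**Figure D3:**
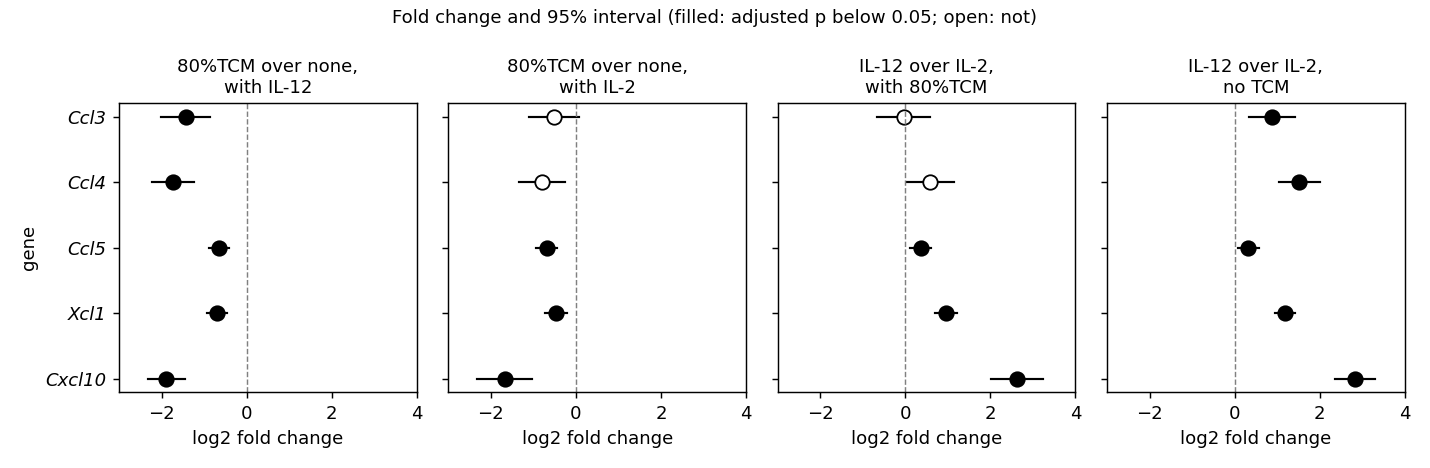
Points give the log2 fold change of each tested chemokine in the 4 comparisons and lines its 95% interval, with filled points for an adjusted p below 0.05. With IL-12 all 5 points lay below 0 for 80%TCM, and without TCM all 5 lay above 0 for IL-12 over IL-2.

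The effect of TCM in IL-12 cultures was set against that in IL-2 cultures by the difference of the 2 log2 fold changes, which was called for 1.58% of all tested genes. None of the 5 chemokines was called by edgeR, DESeq2 or limma on log2(CPM + 1), while 2 had an unadjusted p below 0.05 in edgeR. These were Ccl3, with a difference of -0.92 ± 0.38 (adjusted p = 0.282), and Ccl4, with a difference of -0.94 ± 0.34 (adjusted p = 0.208). The 95% intervals were -1.75 to -0.096 for Ccl3 and -1.67 to -0.20 for Ccl4. The differences were 0.04 ± 0.16 for Ccl5, -0.23 ± 0.16 for Xcl1 and -0.20 ± 0.39 for Cxcl10, at adjusted p of 0.567 to 0.957.

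This result turned on the libraries of the IL-2 groups. With the replicate block there, Ccl3 (-0.93, adjusted p = 0.0175 in edgeR) and Ccl4 (-0.94, adjusted p = 0.0263) were called, against 10.5% of all tested genes. Without replicate 3 of both IL-2 groups the same 2 genes were called, Ccl3 at -0.89 (adjusted p = 0.0272) and Ccl4 at -1.10 (adjusted p = 0.00742), against 13.2% of all tested genes. Without replicate 3 of IL-2 80%TCM alone Ccl4 was called (-1.22, adjusted p = 0.0189).

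Cxcl9 was near the detection limit. It had 8, 1 and 1 counts in IL-12 80%TCM, 15, 14 and 15 counts in IL-12, 1, 3 and 4 counts in IL-2 80%TCM and 4, 7 and 37 counts in IL-2. Replicate 3 of IL-2 held more counts than any other library, and the means of 0.687 ± 0.794 CPM in IL-2 and 0.475 ± 0.243 CPM in IL-12 (SD, n = 3 each) did not separate. In a fit without the filter the log2 fold change for TCM in IL-2 cultures was -2.60 (adjusted p = 6.94e-05 in edgeR), a value to which replicate 3 of IL-2 contributed most of the counts. In that fit the other 4 contrasts of Cxcl9 had adjusted p of 0.0912 to 0.731.

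Cxcl11, the remaining ligand of Cxcr3, for which C57BL/6 mice carry a frameshift, was counted sparsely too. It had 5, 7 and 6 counts in IL-12 80%TCM, 60, 33 and 23 counts in IL-12, 0, 0 and 2 counts in IL-2 80%TCM and 0, 1 and 5 counts in IL-2. With IL-12 its level was 0.311 ± 0.0509 CPM with TCM and 1.09 ± 0.235 CPM without (SD, n = 3 each). It was called lower with TCM (log2 fold change -1.77, adjusted p = 0.0151 in edgeR). Cxcl11 passed the filter only through IL-12 without TCM, where it was highest, so the filter favoured this call.

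Receptors of these chemokines differed in direction between the cytokines. Xcr1, the receptor of Xcl1, averaged 8.55 ± 1.72 CPM in IL-12 80%TCM, 10.4 ± 0.798 in IL-12, 0.602 ± 0.296 in IL-2 80%TCM and 2.11 ± 0.889 in IL-2 (SD, n = 3 each). It was higher with IL-12 both with TCM (log2 fold change 3.82, adjusted p = 8.97e-07 in edgeR) and without (2.27, adjusted p = 2.1e-05), and lower with TCM in IL-2 (-1.81, adjusted p = 0.00599). Cxcr3, the receptor of Cxcl9 and Cxcl10, went the other way between the cytokines. It averaged 43.1 ± 3.04 CPM in IL-12 80%TCM, 75.3 ± 3.86 in IL-12, 133 ± 39.9 in IL-2 80%TCM and 144 ± 23.3 in IL-2, with a log2 fold change of -1.63 with TCM and -0.96 without. In the IL-12 cultures Cxcr3 was lower with TCM (-0.79, adjusted p = 0.00547). Ccr1, a receptor of Ccl3 and Ccl5, had group means of 0.453 to 1.29 CPM and was lower with IL-12 without TCM (-1.57, adjusted p = 0.000438). Ccr3, Ackr1 and Ackr2 did not pass the filter, each with at most 10 counts in a library.

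Interferon gamma is the textbook inducer of Cxcl9 and Cxcl10. Ifng averaged 83.1 ± 5.36 CPM in IL-12 80%TCM, 65.0 ± 5.29 in IL-12, 1.72 ± 0.299 in IL-2 80%TCM and 1.53 ± 0.621 in IL-2 (SD, n = 3 each). It was higher with IL-12 both with and without TCM (log2 fold change 5.61 and 5.37), and in IL-12 cultures it rose with TCM (0.37, adjusted p = 0.0265 in edgeR). The part of interferon gamma in the Cxcl10 values was not tested. Of the 14 genes of interferon signalling, 6 were higher and 1 lower with TCM in IL-12 cultures, among them the feedback inhibitors Socs1 (0.68, adjusted p = 0.000262) and Socs3 (0.64, adjusted p = 0.00159) and the transcription factor Stat2 (0.57, adjusted p = 0.00117). In IL-2 cultures 3 were higher and 0 lower with TCM, again with Socs1 (0.61) and Socs3 (0.54). Of all tested genes, 14.8% were called higher and 14.2% lower with TCM in IL-12 cultures, and 6.73% and 7.82% in IL-2 cultures. Between the cytokines without TCM, 4 were higher and 8 lower with IL-12, against 22.1% and 23% of all tested genes. The receptor chains Ifngr2 (-2.25) and Ifnar2 (-1.01) were among the lower.

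Of 13 tested genes inducible by interferon gamma, 5 were higher and 1 lower with TCM in IL-12 cultures, and likewise 5 and 1 in IL-2 cultures. The one lower in both was the guanylate-binding protein gene Gbp2, at 1112 ± 41.2 CPM in IL-12 80%TCM and 1348 ± 2.69 CPM in IL-12, and at 244 ± 13.3 CPM in IL-2 80%TCM and 348 ± 49.5 CPM in IL-2 (SD, n = 3 each). The immunity-related GTPase gene Irgm2 rose with TCM under each cytokine (0.28 in IL-12 and 0.35 in IL-2 on the log2 scale). Without TCM, 4 genes of the list were higher with IL-12, led by Gbp2 (1.93) and Gbp5 (1.30), and 7 were lower, among them Iigp1 (-1.38). The list's median log2 fold change for TCM was 0.14 in IL-12 cultures and 0.21 in IL-2 cultures, beside -1.42 and -0.69 over the chemokines. Over all tested genes, TCM gave 14.8% called higher and 14.2% lower in IL-12 cultures, and 6.73% and 7.82% in IL-2 cultures. For IL-12 over IL-2 without TCM these shares were 22.1% and 23%.

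Of 10 genes inducible by type I interferon, 3 were higher and 1 lower with TCM in IL-12 cultures, and 1 was higher and 2 lower in IL-2 cultures. The shares over all tested genes were 14.8% and 14.2% in IL-12 cultures, and 6.73% and 7.82% in IL-2 cultures. Ifi44 was called lower under each cytokine, as Cxcl10 was. It averaged 17.1 ± 1.85 CPM in IL-12 80%TCM and 46.3 ± 1.14 CPM in IL-12, and 2.63 ± 0.502 CPM in IL-2 80%TCM and 5.61 ± 1.27 CPM in IL-2 (SD, n = 3 each). Between the cytokines, 4 of the 10 were higher and 3 lower with IL-12 without TCM, against 22.1% and 23% of all tested genes. With TCM 5 were higher and 2 lower, against 19.5% and 19.4%. Usp18, a brake on type I interferon receptors, was higher with TCM under each cytokine (0.43 in IL-12 and 0.35 in IL-2 on the log2 scale) and higher with IL-12 than with IL-2 (3.13 with TCM and 3.04 without).

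**Figure D4:**
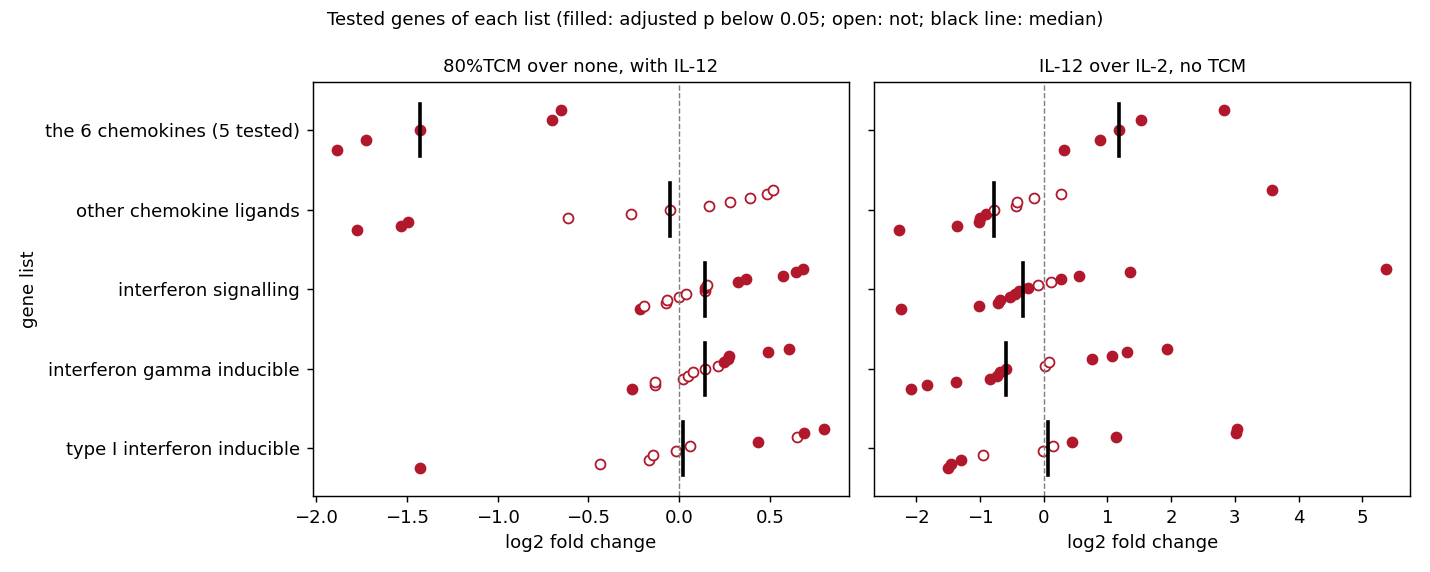
Points are the log2 fold changes of the tested genes of each list for 80%TCM in IL-12 cultures (left) and for IL-12 over IL-2 without TCM (right), filled where the adjusted p was below 0.05, with a black line at the list's median. The 5 tested chemokines lay on 1 side of 0 in each panel, and the 3 interferon lists lay on both sides.

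Ccl3, Ccl4 and Xcl1 are textbook early targets of T cell receptor signals, which run through NF-kappaB, NFAT and AP-1 factors. A list of 14 activation factors held genes of these families together with Nfkbia, Egr1 and Irf4. With TCM, 1 of the 14 was higher and 4 were lower in IL-12 cultures, against 14.8% and 14.2% of all tested genes. In IL-2 cultures 0 were higher and 2 lower, against 6.73% and 7.82%. With IL-12, the NF-kappaB inhibitor gene Nfkbia, itself an NF-kappaB target, was lower with TCM at 57.6 ± 3.53 CPM, against 86.8 ± 8.51 CPM without (SD, n = 3 each). The subunit gene Nfkb2 was lower too (-0.50, adjusted p = 0.000396 in edgeR), while Nfatc2 was higher (0.33, adjusted p = 0.00202). In IL-2 cultures Fos (-1.61, adjusted p = 0.0128) and Nfatc1 (-0.21, adjusted p = 0.018) were lower with TCM. Between the cytokines without TCM, 8 were higher with IL-12 and 3 lower, against 22.1% and 23% of all tested genes. The AP-1 subunit gene Jun was at 254 ± 2.76 CPM in IL-12 and 27.6 ± 3.11 CPM in IL-2.

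The genes whose pattern over the 12 libraries was most like each chemokine were found by the root mean square (RMS) difference of log2(CPM + 1), after each gene was centred on its own mean, among the 11162 genes that averaged 1 CPM or more. This is a description of levels that share the same libraries. Ccl3 was nearest to Egr2 (0.158), Utp20 (0.177) and Nup93 (0.193). Ccl4 was nearest to Egr2 (0.241), Igkc, an immunoglobulin light chain gene of B cells (0.256), and Egr3 (0.265). Egr2, a target of NFAT in stimulated T cells, thus ranked first for both Ccl3 and Ccl4. Egr2 averaged 2.33 CPM in IL-12 80%TCM, 5.55 in IL-12, 1.69 in IL-2 80%TCM and 2.78 in IL-2.

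Ccl5 was nearest to Ryk (0.10), Sept10 (0.129) and Vim (0.133), and Xcl1 to Cdkn2a (0.146), Pcna (0.162) and Hmgn1 (0.176). Cxcl10 was nearest to Sbk1 (0.379), Uchl1 (0.398) and Ifi44l (0.407). These distances grow with how much a gene varies, and the RMS deviation from its own mean was 1.10 for Cxcl10, 0.689 for Ccl4, 0.571 for Xcl1, 0.503 for Ccl3 and 0.400 for Ccl5. Among the chemokines themselves the closest pair was Ccl3 and Ccl4, at an RMS difference of 0.317, and the farthest was Cxcl10 and Cxcl9, at 1.04. Cxcl9 had group means of only 0.106 to 0.687 CPM, so that adding 1 flattened its profile. The distance of 1.04 lay near the deviation of Cxcl10 from its own mean and does not show that the 2 genes differ in regulation.

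Markers of other cell types were counted in every library. The 13 myeloid markers, of which 7 to 11 had a count in a library, summed to 11.8 to 12.5 CPM in IL-12 80%TCM, 9.29 to 12.3 in IL-12, 19.99 to 28.8 in IL-2 80%TCM and 17.1 to 23.7 in IL-2. S100a9 was at 0 in all 12 libraries, and Cd68 and Itgax made up most of the sum. The myeloid sum was higher in each IL-2 group than in the IL-12 group of the same medium. The 6 B cell markers were also higher there, at 8.65 to 10.2, 6.58 to 8.24, 17.3 to 20.1 and 16.7 to 20.4 CPM in the same order of groups. What part myeloid or B cells had in the chemokine values was not tested.

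The 5 natural killer cell markers summed to 1.31 to 1.85 CPM in IL-12 80%TCM, 1.96 to 2.48 in IL-12, 1.26 to 3.598 in IL-2 80%TCM and 1.43 to 1.90 in IL-2. The 3 CD4 T cell markers summed to 3.35 to 3.41, 1.45 to 1.84, 4.21 to 6.16 and 2.84 to 3.25 CPM in the same order, and the sums with TCM lay above those without. The 5 stromal and endothelial markers summed to 112 to 126, 92.2 to 99.3, 104 to 135 and 95.2 to 119 CPM, nearly all of it Pecam1, which T cells also express, while Cdh5 had group means of 0 to 0.0291 CPM. The part of these cells in the chemokine values was not tested.

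Platelets also store Ccl5. The 6 platelet markers summed to 115 to 124 CPM in IL-12 80%TCM, 121 to 139 in IL-12, 190 to 228 in IL-2 80%TCM and 302 to 342 in IL-2, all 6 with a count in every library. In IL-12 cultures the sums with and without TCM overlapped, so there the sum did not follow most of its markers. With TCM 4 of 6 were lower and 1 higher in IL-12 cultures, and 6 of 6 were lower in IL-2 cultures, where Ccl5 fell too. Without TCM all 6 were lower with IL-12 than with IL-2, where Ccl5 was higher. Of all tested genes, 14.2% were called lower and 14.8% higher with TCM in IL-12 cultures, and 7.82% lower in IL-2 cultures. For IL-12 over IL-2 without TCM, 23% were called lower. The part of platelet RNA in the Ccl5 values was not tested.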

How the data were processed

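Total RNA libraries were made with a directional NEBNext kit, per the labels' protocols, whose extraction text speaks of livers, which no sample label names. The authors deposited whole-number counts per gene, made with STAR 2.7.7a, and edgeR is also named without a role, per the submitters' processing notes. These notes name a human build, while the identifiers in the table are mouse Ensembl genes. The deposited signal files hold CPM that equal those computed here with TMM scaling to a relative difference of 1.82e-14.

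The counts were filtered with filterByExpr (minimum count 10, minimum total 15) and fitted in edgeR 4.0.16 (R 4.3.3) by quasi-likelihood over all 12 libraries with 1 mean per group. The common biological coefficient of variation was 0.104. P-values were adjusted by Benjamini-Hochberg over all 15897 tested genes in each of 5 contrasts. Errors of levels are SD, and errors of log2 fold changes are SE derived from edgeR's F statistics.

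Members and gene lists were chosen with earlier results of these data known. Named genes are the 6 chemokines, receptors of theirs (the receptor list is not reported here in full), the other ligands tested, in each list up to 3 called genes with the smallest p per contrast, check genes, and the 3 genes nearest in pattern to each member. A gene named in 1 contrast may be printed in others.

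Residuals of same-numbered libraries of IL-2 80%TCM and IL-2 correlated at 0.43, 0.40 and 0.68, and the replicate block takes these numbers to pair. Replicates 1 and 2 correlated as highly with each other (0.45 and 0.41), so the residuals mark out only replicate 3. Between the other groups the numbers did not pair. Alternatives were other scalings and filters, DESeq2 1.42.0, limma 3.58.1 on the deposited CPM with 0.1, 1 or 5 added, only the groups compared, replicate blocks and libraries left out. Scripts were tested on simulated data.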

Additional observations from a re-analysis of the deposited data

Results flagged for a closer look

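In the main fit, no chemokine of the set was called when the response to TCM was compared between IL-12 and IL-2 cultures. Of the interferon, activation, effector and marker lists set beside them, 9 genes were called, against 1.58% of all tested genes. Each value is the log2 fold change for TCM in IL-12 cultures minus that in IL-2 cultures, at an adjusted p below 0.05 in edgeR. The difference was 0.67 for Irf7 and 0.99 for Isg15, of 10 tested genes inducible by type I interferon. It was -0.61 for Nfkbia and 0.52 for Nfatc2 among the 14 activation factors. It was -0.68 for Bcl6 and 0.55 for Runx3 among the 14 regulators of effector T cells. Among markers of other cells it was -1.47 for Itgax, of 5 tested myeloid genes, and 1.05 for Gp1ba and 0.93 for Itgb3 among the 6 platelet genes.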

How the results depend on the processing

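Of the values recomputed under the alternatives, 538 kept their direction and their side of the threshold, 19 gained a call, 14 lost one and 9 changed sign. For TCM in IL-2 cultures, the 3 called chemokines became 5 with no filter on low counts (6 tested, with Ccl4 and Cxcl9 added to the calls and Ccl3 at adjusted p = 0.155, beside 2841 of 32285 genes called in either direction), 5 with the IL-2 libraries blocked by replicate number, and 2 to 5 when 1 library was left out. For TCM in IL-12 cultures all 5 were called under every alternative but the filter at a mean of 5 CPM, where 2 were tested and 2 called. That filter left 1 called for IL-12 over IL-2 without TCM, since only 2 were tested there. Leaving out 1 library gave 4 to 5 calls in that comparison and 2 to 4 for IL-12 over IL-2 with TCM. For the difference of the TCM responses, 0 calls became 2 in limma on log2(CPM + 5) (Ccl4 and Cxcl10), 2 with that replicate block, 2 when replicate 3 was dropped from each IL-2 group, and 0 to 1 when 1 library was left out. Cxcl10 lay far below the 5 CPM added in the IL-2 groups, at 0.334 to 1.86 CPM. With 5 added its log2 fold change for TCM was -0.24 in IL-2 cultures (-1.68 in edgeR) and -0.97 in IL-12 cultures (-1.88 in edgeR). DESeq2 called Ccl4 lower with TCM in IL-2 cultures (adjusted p = 0.0251), as did the replicate block over all libraries (adjusted p = 0.0153), which also called it higher with IL-12 than with IL-2 in the presence of TCM (adjusted p = 0.0318). The blocks changed no other call than those given here and in the results.

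Signs changed only in values that were not called. For Ccl3 between the cytokines with TCM, the log2 fold change was 0.012 in limma on log2(CPM + 0.1), 0.023 with the IL-2 replicate block, and -0.26 to 0.27 when 1 library was left out. For the difference of the TCM responses it was -0.11 to 0.10 for Ccl5 and -0.48 to 0.15 for Cxcl10 when 1 library was left out. The causes were not tested. No scaling moved the median of all genes by more than 0.1 on the log2 scale. Cxcl9 and, with IL-2, Cxcl10 rest on few counts, and depth limits what can be said of them. With only the groups compared fitted, no value was computed for the difference, which needs all 4 groups.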

Other observations

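Of 32 other chemokine ligands, 11 passed the filter on low counts. With TCM, 0 were higher and 3 lower in IL-12 cultures (Cxcl11, Pf4 and Ppbp), and 2 were higher and 2 lower in IL-2 cultures. The 2 higher there were Ccl17, at 0.647 ± 0.195 CPM in IL-2 80%TCM and 0.226 ± 0.0444 CPM in IL-2, and Ccl27a, at 3.93 ± 0.795 CPM in IL-2 80%TCM and 2.42 ± 0.262 CPM in IL-2 (SD, n = 3 each). Cxcl11 passed the filter only through IL-12 without TCM, and Ccl17 only through IL-2 80%TCM, the groups where each was highest. The calls of Cxcl11 and Ccl17 were thus favoured by the filter. The platelet chemokine Pf4 averaged 5.93 ± 0.934 CPM in IL-12 80%TCM and 17.3 ± 1.91 CPM in IL-12, and 11.9 ± 2.65 CPM in IL-2 80%TCM and 31.9 ± 6.09 CPM in IL-2. Without TCM, Ccl6 was lower with IL-12, at 0.443 ± 0.165 CPM in IL-12 and 2.02 ± 0.855 CPM in IL-2 (adjusted p = 0.00176 in edgeR), as was Ccl22, at 1.198 ± 0.247 CPM in IL-12 and 3.02 ± 0.820 CPM in IL-2 (adjusted p = 0.00105). In all, 1 of the 11 was higher and 5 were lower with IL-12 than with IL-2 without TCM, and 1 and 6 with TCM. Over all tested genes these shares were 22.1% and 23% without TCM, and 19.5% and 19.4% with TCM. For TCM itself they were 14.8% higher and 14.2% lower in IL-12 cultures, and 6.73% and 7.82% in IL-2 cultures.

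Of 14 regulators of effector T cells, 8 were higher and 3 lower with IL-12 than with IL-2 without TCM, among them Stat5a (log2 fold change 0.91) and Eomes (-1.10). With TCM, 4 were higher and 1 lower in IL-12 cultures. The shares of all tested genes called higher and lower were 22.1% and 23% between the cytokines without TCM, and 14.8% and 14.2% with TCM in IL-12 cultures. Runx3, which promotes the cytotoxic programme, averaged 371 ± 20.01 CPM in IL-12 80%TCM and 265 ± 2.95 CPM in IL-12, and Klf2, a factor of quiescent T cells, averaged 19.3 ± 2.69 CPM in IL-12 80%TCM and 44.96 ± 3.53 CPM in IL-12 (SD, n = 3 each). Of 6 genes for proteins that bind AU-rich messages, Zfp36l1 was higher with TCM under each cytokine (0.17 in IL-12 and 0.19 in IL-2 on the log2 scale), Hnrnpd was lower with TCM in IL-12 cultures (-0.28, adjusted p = 0.0304 in edgeR), and Zfp36, whose protein degrades cytokine mRNAs, was higher with TCM in IL-2 cultures (0.55, adjusted p = 0.0362 in edgeR).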
